A study of Homo sapiens with 6 samples.

Results

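Chromosome band 19p13.2 carries long rows of zinc finger genes, and 34 of their names were listed for description here: 33 zinc finger genes and ZNF433-AS1, a noncoding RNA antisense to one of them. The list was chosen by place in the band and on earlier results of the same comparison, in which the TPM of ZNF433-AS1 was lower in the PI5P4K-depleted cells described next. Of the 34 names, 33 were rows of the deposited table, out of 27914 genes. ZNF788 was no row. RefSeq gives that name as an older one of the pseudogene ZNF788P, which was listed at 0 in all libraries and is not counted. Since the members were picked with this contrast in view, their differences are described and not offered as independent evidence.

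The cells were MCF10A, an immortalised human breast epithelial line. There were 3 libraries of the group SCRin control, with a wild-type genotype, and 3 of the group α-/-;βin, called PI5P4K-depleted here, and all 6 had received doxycycline for 3 days. The labels do not spell out SCR, in, α or β. The Greek letters are read as the lipid kinase genes PIP4K2A and PIP4K2B, since the title of the series names PI5P4K. The sources used here do not say whether the depleted line is a single clone, or whether numbered replicates were separate cultures, so every p-value reflects no more than the spread of these libraries, which may be technical. In bulk RNA, fewer cells of a type and less RNA per cell cannot be told apart. Expression was given as TPM, an abundance per transcript length scaled to the same total in every library. TPM keeps no read depth, so the counting error behind low values is unknown.

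The labels were checked against the genes they name. In control replicates 1 to 3 PIP4K2A stood at 19.8, 20.2 and 21.7 TPM, and in PI5P4K-depleted replicates 1 to 3 at 4.09, 4.16 and 4.35 TPM. PIP4K2B measured 20.8, 23.1 and 21.4 TPM against 8.20, 8.69 and 11.6 TPM. All 10 breast epithelial markers examined averaged at least 1 TPM, and their summed level ranged from 3920 to 6573 TPM in controls and from 4240 to 6157 TPM in PI5P4K-depleted libraries. The 7 fibroblast markers, 2 of which averaged at least 1 TPM, summed to at most 6.32 TPM and the 4 endothelial markers to at most 1.81 TPM in any library, with COL3A1 listed at 0 throughout. Among immune markers, PTPRC, the common leukocyte antigen, was listed at 0 in every library, while CD68, a lysosomal protein of macrophages and other cells, ranged from 38.3 to 44.9 TPM in controls and from 35.6 to 38.7 TPM in PI5P4K-depleted libraries. CD14, a monocyte receptor for lipopolysaccharide, ranged from 2.65 to 5.998 TPM and from 7.05 to 9.48 TPM, with no overlap and without passing (limma adjusted p = 0.264); its part in the results was not tested.

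Zinc finger proteins of this kind bind DNA through tandem C2H2 fingers, each folded around a zinc ion. Most of those encoded in the chromosome 19 clusters also carry a KRAB domain, which recruits the corepressor TRIM28 and, through it, the histone methyltransferase SETDB1 and HP1 proteins. The clusters grew by repeated local duplication, so neighbours are paralogs with similar coding and promoter sequence, and many members are known for silencing transposable elements.

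In the RefSeq gene order the members form a pair of rows. The one nearer the telomere, called the distal cluster, runs from ZNF559 to ZNF846 and holds 8 members. The one nearer the centromere, called the proximal cluster, runs from ZNF627 to ZNF791 and holds 25, among them ZNF433-AS1. RefSeq (GRCh38.p14) gave a promoter window for 31 of the 33 members, ZNF559 and ZNF763 being the exceptions. The 250 bases before the first listed start of each gene were compared, because the sequences show how the clusters differ and how closely ZNF433-AS1 resembles its neighbours. The windows of ZNF433-AS1, of the gene it overlaps, ZNF433, of the nearest tested genes on either side, ZNF700 and ZNF20, of ZNF491, a gene listed at 0, and of ZNF846 and ZNF561 of the distal cluster are shown 5′ to 3′ on the strand of the gene. Capitals mark the 8-letter word shared by most windows of the cluster, and in ZNF433-AS1 its nearest match.
ZNF433-AS1, chr19:11987367-11987616, plus strand: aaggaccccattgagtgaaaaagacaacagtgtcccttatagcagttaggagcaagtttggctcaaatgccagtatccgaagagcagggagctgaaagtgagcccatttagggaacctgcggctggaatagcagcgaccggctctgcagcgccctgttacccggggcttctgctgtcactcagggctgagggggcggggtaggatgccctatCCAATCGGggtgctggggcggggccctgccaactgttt
ZNF433, chr19:12035680-12035929, minus strand: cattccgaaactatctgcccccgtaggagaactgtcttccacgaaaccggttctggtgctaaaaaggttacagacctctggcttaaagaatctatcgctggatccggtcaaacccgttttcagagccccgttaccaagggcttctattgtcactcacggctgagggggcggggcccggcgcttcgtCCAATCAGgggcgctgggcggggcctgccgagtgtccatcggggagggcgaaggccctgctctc
ZNF700, chr19:11924857-11925106, plus strand: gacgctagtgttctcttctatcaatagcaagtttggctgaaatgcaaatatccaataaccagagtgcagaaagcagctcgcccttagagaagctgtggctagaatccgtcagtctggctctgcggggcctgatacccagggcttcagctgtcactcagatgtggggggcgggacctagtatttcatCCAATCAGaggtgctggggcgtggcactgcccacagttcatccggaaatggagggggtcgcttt
ZNF20, chr19:12140351-12140600, minus strand: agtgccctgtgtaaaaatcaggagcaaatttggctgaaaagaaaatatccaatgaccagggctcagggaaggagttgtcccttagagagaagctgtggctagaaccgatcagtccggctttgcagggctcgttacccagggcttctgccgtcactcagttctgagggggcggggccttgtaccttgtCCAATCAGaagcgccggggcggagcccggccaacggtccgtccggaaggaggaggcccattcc
ZNF846, chr19:9768739-9768988, minus strand: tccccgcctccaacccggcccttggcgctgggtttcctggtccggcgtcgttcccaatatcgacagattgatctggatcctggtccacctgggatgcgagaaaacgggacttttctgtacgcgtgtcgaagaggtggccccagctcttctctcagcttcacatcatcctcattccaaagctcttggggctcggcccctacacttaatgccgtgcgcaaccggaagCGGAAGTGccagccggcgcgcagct
ZNF561, chr19:9621233-9621482, minus strand: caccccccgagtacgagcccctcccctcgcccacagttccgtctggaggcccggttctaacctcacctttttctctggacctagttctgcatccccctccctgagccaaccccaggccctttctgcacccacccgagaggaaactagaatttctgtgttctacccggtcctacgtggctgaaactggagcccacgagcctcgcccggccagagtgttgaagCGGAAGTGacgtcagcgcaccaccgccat
ZNF491, chr19:11798273-11798522, plus strand: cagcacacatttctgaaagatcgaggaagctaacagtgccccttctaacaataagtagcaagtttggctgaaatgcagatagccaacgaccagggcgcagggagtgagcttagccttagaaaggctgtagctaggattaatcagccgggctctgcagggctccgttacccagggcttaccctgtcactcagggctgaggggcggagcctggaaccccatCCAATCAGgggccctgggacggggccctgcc

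The clusters carry different words. CCAATCAG, searched on both strands, was the 8-letter word found in the most proximal windows, 21 of 24 (87.5%), and in 0 of 7 distal windows. It holds the CCAAT box, the core recognised by the factor NF-Y. CACTTCCG, searched on both strands and read as CGGAAGTG from the other one, was found in 6 of 7 distal windows (85.7%) and in 0 of 24 proximal ones. It holds the GGAA core of sites for ETS factors. For comparison, CCAATCAG occurred in 19.1% of 183 windows of other zinc finger genes on chromosome 19 and in 3.99% of 27305 windows of all genes. CACTTCCG occurred in 7.65% and 3.33% of them. Both words were picked from these windows after looking at them, so the shares are descriptions, and a match is no evidence that a factor binds.

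The words also sit at different places. In the proximal windows the first base of CCAATCAG lay between 130 and 31 bases before the start, with a median of 64. In the distal windows that of CACTTCCG lay between 29 and 13 bases before it, with a median of 23. The letters TATAAA, as in a TATA box, were found on neither strand in any of the 31 windows, against 11.1% of all windows. GGGCGG, which is the core of an Sp1 site, was in 23 of 24 proximal and 3 of 7 distal windows, against 42.3% of all.

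**Figure D1:**
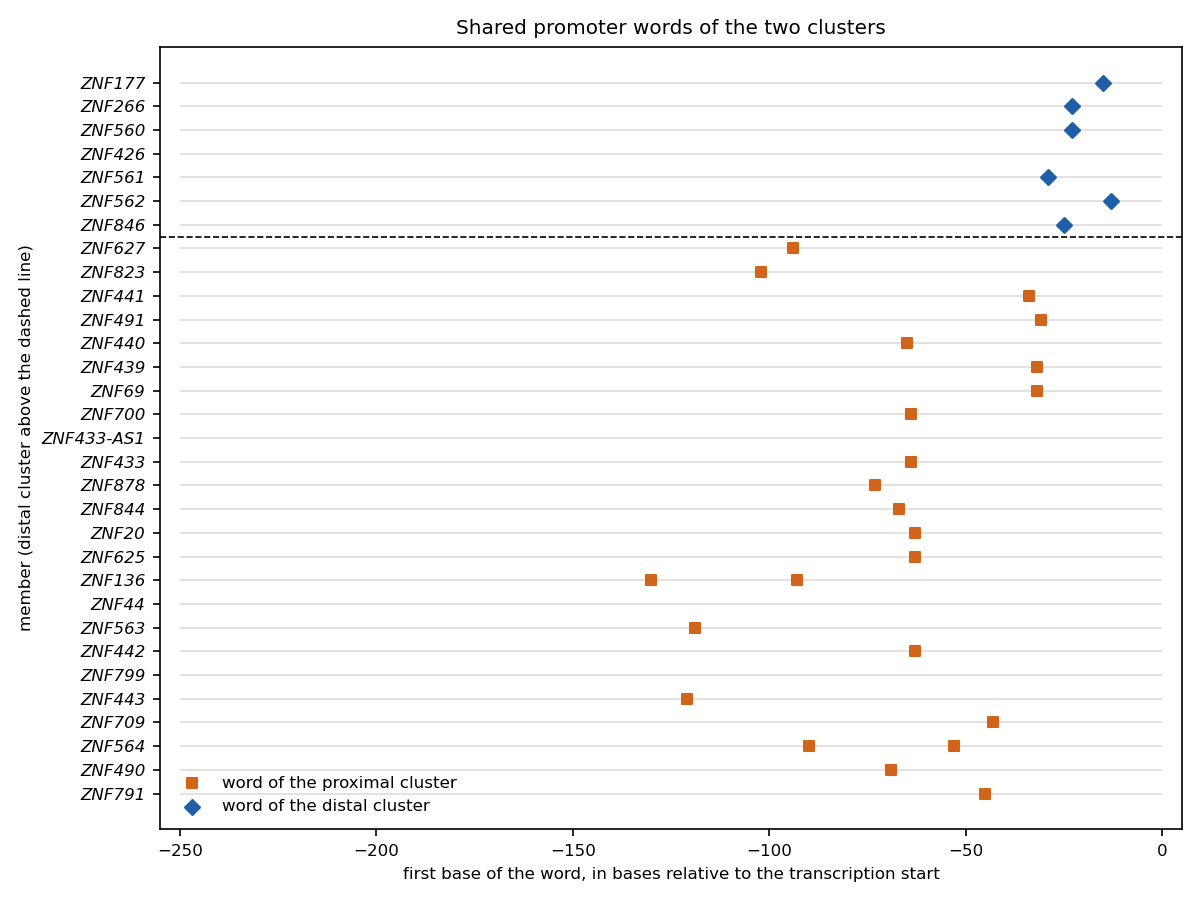
Position of the shared 8-letter words in the 250 bases before the start of 31 members. The x axis gives the first base of the word in bases relative to the start, each row is a gene, squares mark the proximal word and diamonds the distal one; diamonds occur only above the dashed line and squares only below it, and ZNF426, ZNF433-AS1, ZNF44 and ZNF799 have neither.

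ZNF433-AS1 is 1 of the 3 proximal windows without the exact word. Its nearest match, CCAATCGG, starts 38 bases before the start and differs by A7G, with the base of the word first, its position counted from 1 at the 5′ end of the word, and then the base of the window. ZNF44 differs by G8A, in CCAATCAA, and ZNF799 comes within 1 letter at 2 places, by A4C and by C1T. Outside the word, the longest unbroken runs that the window of ZNF433-AS1 shares are 30 bases with ZNF878, 25 with ZNF627, 22 with ZNF440 and 21 with ZNF491. Runs with the other proximal windows go from 8 bases, for ZNF136 and ZNF442, to 18 for ZNF844. With distal windows they reach at most 11, so the run length overlaps between the clusters. The level of the genes with and without the word overlapped. The 21 proximal members with it averaged from 0 to 11.5 TPM, with a median of 0.735, and the 3 without it averaged 1.86 to 3.80 TPM. The number of CpG sites in the window also overlapped between the 7 members listed at 0 throughout (7 to 14, median 11) and the 17 with a mean of at least 1 TPM (8 to 20, median 12).

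Expression of the members was low. Of the 33, 7 were listed at 0 in all 6 libraries: ZNF560 of the distal cluster and ZNF491, ZNF439, ZNF69, ZNF878, ZNF844 and ZNF625 of the proximal one. A listed 0 in this table can be a failed estimate and is not read as absence. Another 8 had values above 0 but averaged under 1 TPM, and 18 reached a mean of at least 1 TPM, the minimum for testing. ZNF441, with a mean of 1.50 TPM, lay just inside that minimum and ZNF440, with 0.781 TPM, just outside. The highest were ZNF562 with a mean of 13.5 TPM, ZNF791 with 11.5, ZNF266 with 9.89, ZNF561 with 7.89 and ZNF627 with 7.43 TPM. Summed over its 8 members, the distal cluster stood at 40.9 to 41.3 TPM in controls and at 38.9 to 42.1 TPM in PI5P4K-depleted libraries, which overlap. The 25 proximal members summed to 53.7 to 58.9 TPM and to 43.5 to 44.6 TPM. Without ZNF433-AS1 the proximal sums were 47.8 to 52.7 and 43.3 to 43.5 TPM, so the groups were still apart.

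**Figure D2:**
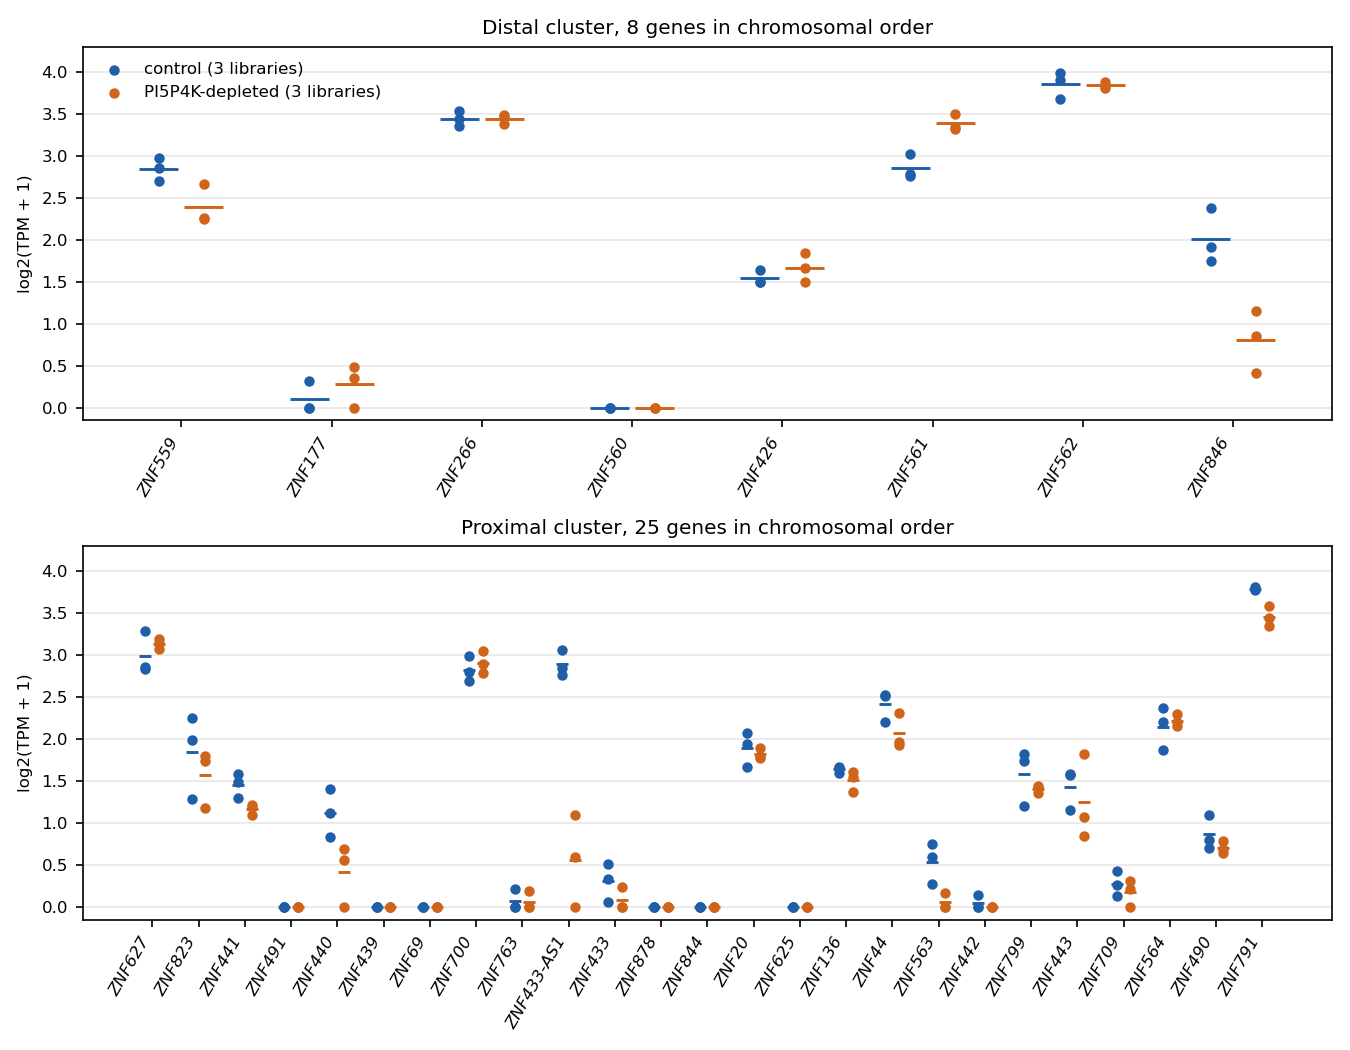
Level of each of the 33 members in each library, as log2(TPM + 1), in chromosomal order. Dots are libraries (blue control, orange PI5P4K-depleted, 3 each) and bars are group means; ZNF433-AS1 and ZNF846 show the widest separation, and ZNF561 is the member whose PI5P4K-depleted dots all lie above the control dots.

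ZNF433-AS1 was the member that fell. Control replicates 1 to 3 had 5.81, 7.38 and 6.23 TPM of it. Of the PI5P4K-depleted replicates, the first had a listed 0, the second 1.14 TPM and the third 0.515 TPM. The groups did not overlap, and the log2 change on the log2(TPM + 1) scale, which understates changes of low genes, was -2.33 (SE 0.30, 95% interval -3.04 to -1.62). It was the only member past an adjusted p of 0.05 by limma: of 18 tested members 1 was called lower, against a background of 1.83% of 12096 tested genes, and 0 were called higher, against 0.364%. At an unadjusted p under 0.05 by the same limma fit there were 4 lower members and 1 higher, against 8.17% lower and 3.72% higher of all tested genes. The list was chosen with the result for ZNF433-AS1 known, so nothing is read from its count. Its call was lost with a pseudocount of 0.1 TPM (limma adjusted p = 0.0796, at a log2 change of -3.95), without control replicate 3 (0.0619) and without PI5P4K-depleted replicate 3 (0.0539), and held under the 10 other alternatives (0.00473 to 0.0796 over all 13).

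The neighbours of ZNF433-AS1 gave little to compare. In GENCODE v29 its exons lie on the plus strand and those of ZNF433 on the minus strand, with 487 bases in common, which are 8.27% of the exonic bases of ZNF433-AS1 and 15.8% of those of ZNF433. The sources used here do not say if strand was kept, so reads of those bases cannot be assigned to either gene. ZNF433 itself was near the floor, with 0.0450, 0.259 and 0.432 TPM in controls and 0, 0.178 and 0 in PI5P4K-depleted libraries, and the groups overlapped. ZNF763, the next member before ZNF433-AS1, was above 0 in 1 library of each group, at 0.163 and 0.143 TPM. ZNF878 and ZNF844, the next members after ZNF433, were listed at 0 in every library.

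The nearest neighbours with measurable levels had changes near 0. ZNF700 measured 5.98, 5.48 and 6.94 TPM in controls, against 7.31, 6.44 and 5.93 TPM after depletion, a log2 change of 0.09 with a 95% interval from -0.25 to 0.42. ZNF20 measured 2.86, 3.22 and 2.18 TPM against 2.41, 2.72 and 2.47 TPM (log2 change -0.08, 95% interval -0.51 to 0.35). For both genes the libraries of the groups overlapped. In GENCODE v29, 55% of the 50-base stretches in ZNF20 transcripts also occur in other genes, so its level is uncertain. For ZNF700 the share is 18.3%, and 577 of its exonic bases also belong to AC008770.2 on the same strand. ZNF433-AS1 was listed with its fall in these data known, and the differences between its change and those of ZNF700 and ZNF20 were not tested.

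In the distal cluster the largest log2 change was that of ZNF846, the last gene of the row. It measured 4.21, 2.35 and 2.78 TPM in controls and 1.22, 0.805 and 0.330 TPM in PI5P4K-depleted libraries, or 3.11 ± 0.971 and 0.785 ± 0.445 TPM (SD, n = 3). All depleted values lay under the lowest control value, and the mean was 25.2% of control. The log2 change of -1.21 (SE 0.28, 95% interval -1.88 to -0.54) did not pass the adjusted threshold (limma adjusted p = 0.106). The next member in the row, ZNF562, measured 11.8, 14.9 and 13.97 TPM against 13.04, 13.7 and 13.3 TPM (log2 change -0.02, 95% interval -0.29 to 0.26). On its other side FBXL12, an F-box gene and no zinc finger gene, measured 9.30, 6.94 and 8.94 TPM in controls and had a log2 change of 0.02 (limma adjusted p = 0.988).

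ZNF561 differed in the other direction. It measured 7.14, 5.79 and 5.90 TPM in controls and 9.04, 10.3 and 9.13 TPM in PI5P4K-depleted libraries, 6.28 ± 0.749 and 9.50 ± 0.718 TPM (SD, n = 3). Each depleted value lay above each control value, and the log2 change of 0.53 (SE 0.13, 95% interval 0.22 to 0.84) did not pass the adjusted threshold under any of its 13 alternatives. ZNF561 and ZNF846 carry the same word, CGGAAGTG, within 30 bases of their starts. ZNF561-AS1, a noncoding gene that starts 249 bases away from ZNF561 on the opposite strand in RefSeq, measured 2.68, 0.763 and 2.75 TPM against 1.10, 0.887 and 0.768 TPM, and the groups overlapped (log2 change -0.60, limma adjusted p = 0.586). In GENCODE v29 its exons share 2461 bases with ZNF562 on the opposite strand, 18.9% of the exonic bases of ZNF562. Without knowing if strand was kept, reads of those bases cannot be assigned, so the level of ZNF562 is less certain.

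ZNF791 and ZNF490, at the end of the proximal cluster, have starts 106 bases apart on opposite strands in RefSeq. ZNF791 measured 12.7, 12.8 and 13.02 TPM in controls and 9.91, 10.99 and 9.21 TPM in PI5P4K-depleted libraries, with no overlap and a log2 change of -0.33 (SE 0.11, 95% interval -0.59 to -0.08) that did not pass the adjusted threshold. ZNF490 measured 0.733, 0.626 and 1.15 TPM against 0.613, 0.722 and 0.568 TPM, which overlap. ZNF559, the first gene of the distal row, measured 5.50, 6.27 and 6.86 TPM against 3.76, 5.33 and 3.79 TPM (log2 change -0.46, 95% interval -0.86 to -0.05). ZNF441 measured 1.45, 1.81 and 2.01 TPM against 1.33, 1.29 and 1.13 TPM (log2 change -0.29, 95% interval -0.77 to 0.20). Neither passed the adjusted threshold, although the libraries of the groups were apart for both.

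Among the 8 members above 0 but under the testing minimum, 2 had groups that were apart. The share of all genes at such low levels with groups apart was not counted, so nothing is read from this number. Control levels of ZNF440 were 0.785, 1.64 and 1.18 TPM, and its depleted levels were a listed 0, then 0.609 and 0.471 TPM in replicates 2 and 3. ZNF563 measured 0.690, 0.508 and 0.209 TPM in controls, 0.123 TPM in replicate 2 of the PI5P4K-depleted group and a listed 0 in replicates 1 and 3. When every gene with a value was fitted, their log2 changes were -0.71 and -0.49, and neither passed (limma adjusted p = 0.360 and 0.266). The genes beside ZNF440 in the row were ZNF491 and ZNF439, both listed at 0. The neighbours of ZNF563 were ZNF442, which was above 0 in 1 library at 0.106 TPM, and ZNF44. ZNF44 measured 3.63, 4.75 and 4.70 TPM against 2.80, 2.93 and 3.98 TPM, with a log2 change of -0.34 (95% interval -0.78 to 0.09) and overlapping groups.

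None of the remaining tested members passed the adjusted threshold, and the intervals of some were wide. ZNF266, ZNF426, ZNF627, ZNF823, ZNF136, ZNF799, ZNF443 and ZNF564 had log2 changes from -0.27 to 0.14, and for each the groups overlapped. ZNF266, with the smallest change of the distal cluster, measured 10.6, 9.85 and 9.26 TPM against 10.02, 9.39 and 10.2 TPM. ZNF564, with the smallest of the proximal cluster, measured 4.19, 2.65 and 3.63 TPM against 3.60, 3.46 and 3.91 TPM. ZNF627, with its highest, measured 6.24, 8.77 and 6.15 TPM against 8.18, 7.84 and 7.42 TPM. The widest interval among them was that of ZNF443, from -0.92 to 0.55, which includes the log2 change measured for ZNF44. That of ZNF823 ran from -1.005 to 0.463. ZNF177, ZNF709 and ZNF442, all under the testing minimum, stayed under 0.4 TPM in every library.

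**Figure D3:**
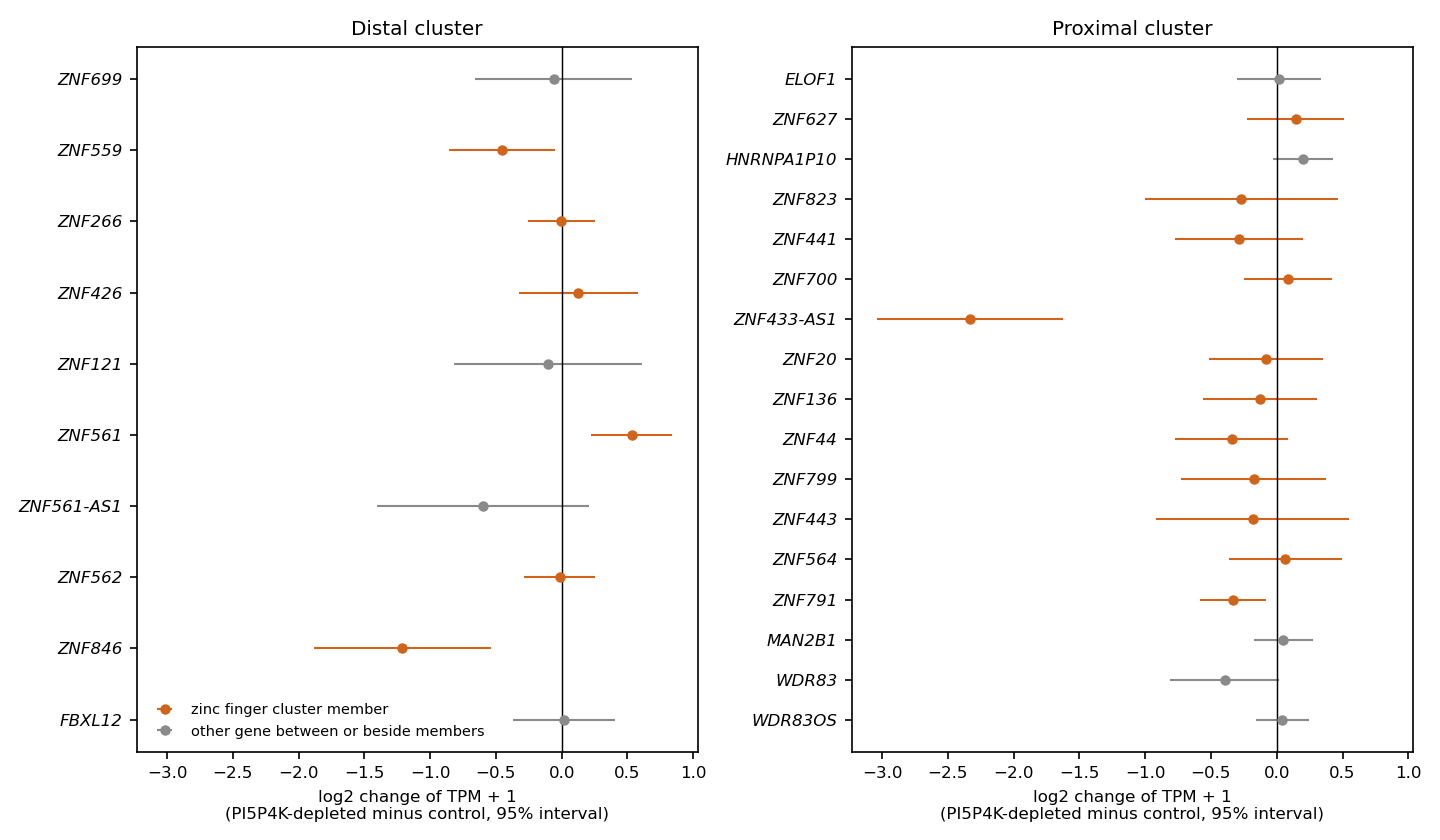
Log2 change (PI5P4K-depleted minus control, on the log2(TPM + 1) scale) with its 95% interval for the 18 tested members (orange) and the 9 tested other genes between them or within 5 genes of either end (grey), in chromosomal order from the top. ZNF433-AS1 at -2.33 and ZNF846 at -1.21 stand apart, and the other 25 genes lie between -0.60 and 0.53.

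Counted over the 18 tested members, the groups did not overlap for 5 lower and 1 higher, against 11.4% lower and 5.64% higher of all tested genes. Of the other tested zinc finger genes of chromosome 19, 6 of 26 on the short arm and 13 of 112 on the long arm were also lower without overlap. By row, this held for 8 of 29 from ZNF577 to ZNF331 and 4 of 15 from ZNF283 to ZNF180, but for 0 of 28 from ZNF264 to ZNF446. The 5 lower members were ZNF433-AS1, ZNF846, ZNF791, ZNF559 and ZNF441. ZNF559 and ZNF846 lie at opposite ends of the distal row and ZNF441, ZNF433-AS1 and ZNF791 apart from each other in the proximal row, with at least 1 tested member whose groups overlap between any 2 of them. ZNF440, under the testing minimum and at 30.0% of control, was also lower without overlap, and only ZNF491, listed at 0, lies between it and ZNF441 among the members. The members had a median log2 change of -0.15 (quartiles -0.32 and 0.05), with 13 of 18 below 0, beside a median of -0.01 and 53.3% below 0 for all tested genes. The median was -0.09 without control replicate 3 and -0.10 without PI5P4K-depleted replicate 2. Without ZNF433-AS1 the mean level of the other 17 tested members, relative to the controls, stood at -0.01, -0.05 and 0.05 in control replicates 1 to 3 and at -0.15, -0.16 and -0.14 in PI5P4K-depleted ones on the log2(TPM + 1) scale. By cluster, the depleted libraries stood at -0.18, -0.11 and -0.23 for the 6 tested distal members and at -0.13, -0.19 and -0.09 for the 11 proximal ones, so their order differed between the clusters. Without ZNF846 as well, the 16 other members stood at -0.10, -0.10 and -0.05, a difference between groups of -0.08 in place of -0.15.

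None of the other genes in the same stretches passed the test. Between the members of a cluster, or within 5 RefSeq genes of its ends, 19 other genes were in the table and 9 were tested. Of these, 0 passed by limma, against 1.83% lower and 0.364% higher of all tested genes, so little is read from 0 of 9. At an unadjusted limma p under 0.05 there were also 0 of 9, against 8.17% lower and 3.72% higher. The median log2 change of the 9 was 0.02. The 9 include ZNF121 and ZNF699, zinc finger genes that are not on the list, with log2 changes of -0.10 and -0.06 (limma adjusted p = 0.951 and 0.968). HNRNPA1P10, a processed pseudogene of the RNA-binding protein HNRNPA1 inside the proximal row, measured 951, 984 and 876 TPM in controls. In PI5P4K-depleted libraries it measured 985, 1174 and 1078 TPM. It was thus higher without overlap, with a log2 change of 0.20 (limma adjusted p = 0.499). How many of its reads come from HNRNPA1 itself was not measured, so its level may not belong to this row. WDR83, a WD-repeat gene just past ZNF791, had no overlap between groups, at 7.35, 7.14 and 8.49 TPM against 6.71, 4.26 and 5.98 TPM (log2 change -0.40, limma adjusted p = 0.447). With the 10 nearest tested genes taken on each side, a width chosen after seeing the data, 0 of 43 passed by limma. At an unadjusted limma p under 0.05, 0 of the 43 were lower and 1 was higher, against 8.17% and 3.72% of all tested genes. Their median log2 change was -0.07, with 27 of 43 below 0.

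Calls among zinc finger genes elsewhere were also few, beside 1.83% lower and 0.364% higher of all tested genes. Of 26 other tested zinc finger genes on the short arm of chromosome 19, 0 were called lower and 0 higher by limma. With an unadjusted p under 0.05, 4 were lower and 0 higher, against 8.17% and 3.72% of all tested genes. The median of the 26 was -0.07 on the log2 scale. Among them ZNF93 and ZNF738, picked once their values had been seen, stood at 21.7% and 28.1% of control without passing (limma adjusted p = 0.0596 and 0.0625). Of 112 on the long arm, 1 was called lower and 0 higher by limma, with a median of -0.09 and 74 below 0. If p is left unadjusted, 7 were lower and 2 higher there, beside the same 8.17% and 3.72% of all tested genes. The called gene was ZNF302, which was picked once its values had been seen. It stood at 3.10, 4.85 and 6.70 TPM in controls and 0.361, 0.388 and 0.511 TPM in PI5P4K-depleted libraries (log2 change -2.01, SE 0.27, limma adjusted p = 0.0125). Among rows of at least 5 tested genes, the lowest median was -0.22, for the 29 tested genes from ZNF577 to ZNF331, with 22 below 0. The highest was 0.11, for the 7 from ZNF628 to ZNF580, with 3 below 0. The 200 tested zinc finger genes of other chromosomes had a median of 0.02, with 44.5% below 0. Whether these medians differ from that of the members was not tested.

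**Figure D4:**
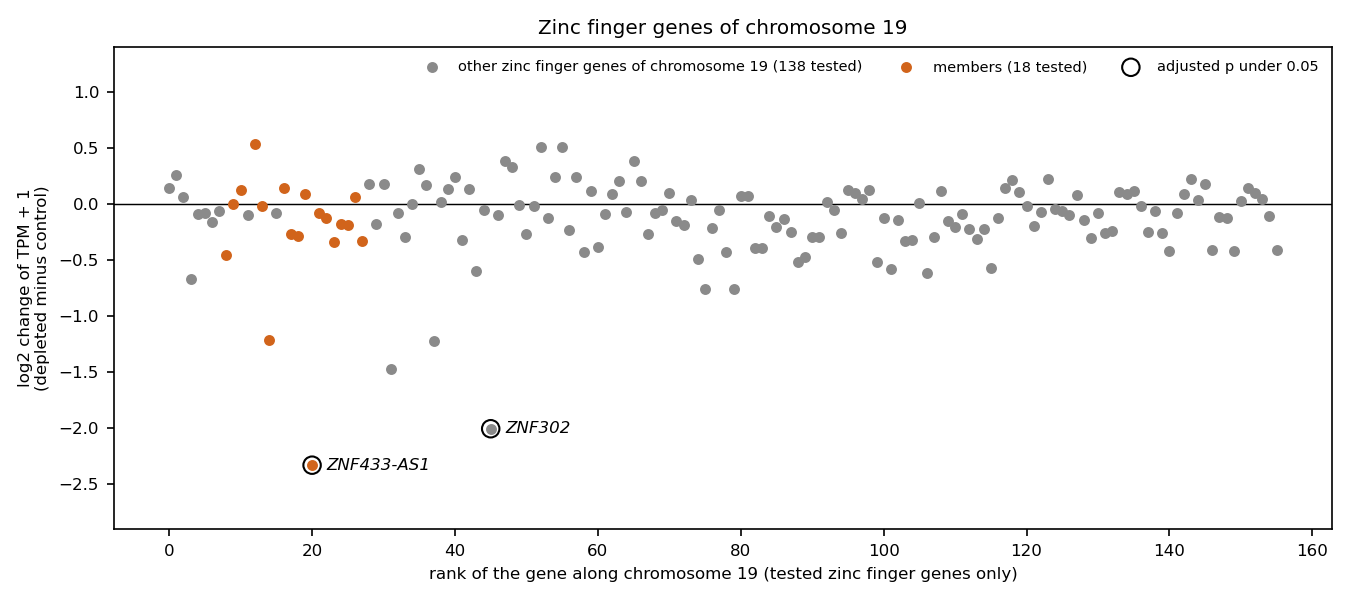
Log2 change of the 156 tested zinc finger genes of chromosome 19 with ZNF433-AS1, in chromosomal order by rank. Orange dots are the 18 members, grey dots the 138 others, and rings mark the genes past an adjusted p of 0.05 by limma, ZNF433-AS1 and ZNF302.

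A list of corepressor genes through which KRAB proteins act, and of other chromatin genes, was written from general knowledge. It also holds ZNF274, one of the other zinc finger genes of chromosome 19 counted above. The list came to 27 genes, all of them tested. Of these, 2 fell, 0 rose and 25 did not pass, against 1.83% of all tested genes called lower, and the median log2 change was -0.03. CBX3 on chromosome 7, which encodes the HP1γ protein, fell from 682 ± 48.5 to 373 ± 15.8 TPM (SD, n = 3; log2 change -0.87, SE 0.09, limma adjusted p = 0.00526). FAM208A on chromosome 3, also called TASOR and a subunit of the silencing complex HUSH, fell from 56.4 ± 7.04 to 28.6 ± 2.77 TPM (log2 change -0.95, SE 0.12, limma adjusted p = 0.0112). Both genes lie among lowered neighbours. Of the 20 tested genes nearest to CBX3 in RefSeq order, 10 on each side, 12 were called lower and all 20 had log2 changes below 0, with a median of -0.95. Of the 20 nearest to FAM208A, 9 were called lower and 19 were below 0, with a median of -0.76. The log2 changes of CBX3 and FAM208A thus lie between the quartiles of their neighbours (-1.05 and -0.66, and -1.06 and -0.69), a comparison added after seeing the data, and nothing particular to corepressors is read from them. The means of TRIM28 were 150.4 TPM in controls and 156 TPM after depletion, those of SETDB1 19.1 and 19.6 TPM, and neither passed (limma adjusted p = 0.944 and 0.972).

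Paralogy limits how far some of these values belong to a single gene. In GENCODE v29, a median of 8.15% of the 50-base stretches in a member's transcripts also occur in transcripts of another gene, with a range from 0% for ZNF560 to 86.8% for ZNF177. The share is over 50% for 6 members, ZNF177, ZNF625, ZNF709, ZNF564, ZNF490 and ZNF20, mostly through readthrough transcripts such as ZNF625-ZNF20, so their levels are uncertain. ZNF443 shares 29.5% of its stretches with ZNF799 alone. The share is 11.2% for ZNF433-AS1, 1.01% for ZNF846, 4.71% for ZNF561 and 2.04% for ZNF791. The sources used here give neither the authors' annotation nor their counting rule, so how such reads were assigned is unknown.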

How the data were processed

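Expression of MCF10A cells was measured by RNA sequencing in 3 control and 3 PI5P4K-depleted libraries. The authors deposited TPM values of 27914 genes in 1 table, with gene symbols in rows and samples in columns. Each deposited TPM column sums to 1000000. Per the submitters' processing notes the build was hg19. The sources used here name no aligner, annotation or counting rule. Control columns were matched by name and number, and the columns headed as the experiment were assigned to the other group by number.

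From these values log2(TPM + 1) was computed, and the 12096 genes (43.3%) whose mean reached 1 TPM were tested. The test was that of limma 3.58.1, run in R 4.3.3 (empirical Bayes, mean-variance trend, two-sided), with Benjamini-Hochberg adjustment over all tested genes and a threshold of 0.05. The members and lists were chosen with earlier results of these data known. The rule for named genes accounted for every member and gave values per library for members past the threshold, those with the largest and smallest change in each cluster, and the members next to one past the threshold, with other genes named only if past the threshold in or beside a cluster. The other members given per library, the genes beside them that did not pass, ZNF302, ZNF93, ZNF738 and the corepressor genes fell outside it. They were picked once their values had been seen. Gene order came from RefSeq (GRCh38.p14), which is not the build of the files, so it was used for neighbours only. Promoter windows are from the same RefSeq release, and exon overlap and shared 50-base stretches from GENCODE v29. Clusters were split at gaps of over 10 genes. The alternatives were another pseudocount, 2 other minimum levels, no trend, short RNA genes left out, median centring, a replicate block and each library left out. The summed level of the immune marker list is not reported here.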

Additional observations from a re-analysis of the deposited data

How the results depend on the processing

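The 13 alternatives left the number of members called higher at 0 and the number of called neighbours at 0. The number called lower was 1, and became 0 with a pseudocount of 0.1 TPM, 2 with the replicate block (ZNF433-AS1, and ZNF846 with a limma adjusted p of 0.0364, whose adjusted p over its 13 alternatives ran from 0.0364 to 0.296) and 0 to 1 with a library left out. The median log2 change of the tested members was -0.21 with a pseudocount of 0.1 TPM and ran from -0.1249 to -0.0906 with a library left out. Over all genes, 265 passed, 881 with the replicate block and 106 to 219 with a library left out. Same-numbered libraries deviated together for numbers 1 and 2 (correlations 0.246 and 0.269) but not for 3 (-0.015), and not every library correlated best with its own number, so the numbers were not taken to pair the samples.

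Direction changed only for genes that passed under no setting, with main log2 changes from -0.184 for ZNF443 to 0.0661 for ZNF564. With samples centred on their median, ZNF266 had 0.0272 and ZNF562 0.0136. With a library left out, the values of these genes ran from -0.1256 to 0.1119 for ELOF1, -0.1003 to 0.1372 for FBXL12, -0.3702 to 0.0802 for ZNF121, -0.1932 to 0.0104 for ZNF20, -0.0458 to 0.0425 for ZNF266, -0.4713 to 0.0164 for ZNF443, -0.1054 to 0.0495 for ZNF562, -0.0752 to 0.1777 for ZNF564 and -0.2331 to 0.1264 for ZNF699. The cause was not tested. TPM keeps no depth, so values under 1 TPM have an unknown counting error.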
